A study of Mus musculus with 32 samples.

Results

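Phosphodiesterase 6 (PDE6) is the enzyme that lowers cyclic GMP in photoreceptors when light is absorbed, and its 5 subunit genes were followed here in rods and cones of the mouse retina. They were chosen by name, with earlier results of these data known: Pde6a, Pde6b and Pde6g for rods, and Pde6c and Pde6h for cones. These are 5 of the 54232 genes in the count table, and all 5 were among the 17871 genes with enough reads to be tested.

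RNA had been sequenced from photoreceptors cut by laser from frozen eyes of male mice aged 6 weeks, on a C57BL/6/J x 129 SvEvBrd background in every group. Wild-type mice (WT) were set beside Per1-/-Per2Brdm1 mice (KO), which carry disrupted alleles of the circadian clock genes Per1 and Per2 in all their cells. Eyes were taken at circadian times (CT) 19, 22, 1 and 10, which count hours from subjective dawn and, per the labels, span the peak of outer segment phagocytosis. Each of the 8 combinations of genotype and time held 4 libraries, 32 in all, and library totals ranged from 23833604 to 34582742 counts. The title of 1 library, WT at CT1 replicate 5, carries numbers of 2 animals.

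In a rod the enzyme is a pair of catalytic subunits, alpha from Pde6a and beta from Pde6b, held inactive by the small inhibitory gamma subunit from Pde6g. Cones use a catalytic alpha-prime subunit from Pde6c, paired with itself, and their own inhibitory subunit from Pde6h. Activated transducin takes the inhibition off, cyclic GMP falls, and the cyclic nucleotide-gated channels of the outer segment close. Loss of PDE6 activity is a known cause of photoreceptor degeneration in mice and in people.

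The labelled cell type was checked against marker genes. Rod markers summed to between 75808 and 127979 CPM (read counts scaled to library size by the TMM method) in WT and between 70347 and 105072 in KO, and cone markers to 1879 to 2968 and 1535 to 2702 CPM. Markers of other cells were also present in every group: 14 bipolar cell markers summed to 430.3 to 869 CPM in WT and 528 to 1041 in KO, and 11 lens markers to 67.1 to 10551 and 206 to 6310 CPM. Over all 8 groups, no marker of a list was at 0 in every library of a group. Per2 counts separated the genotypes without overlap (15.2 to 44.3 CPM in the 16 WT and 168 to 267 CPM in the 16 KO libraries), as did Per1 (94.4 to 145.5 and 169.9 to 323 CPM), but a count over the whole gene does not check the deleted part. In bulk samples, fewer cells of a type and less RNA per cell cannot be told apart.

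The rod subunits were abundant. Pde6a held 88721 to 162997 counts per library, Pde6b 84784 to 155238 and Pde6g 55688 to 111031. The cone subunits held far fewer, 2286 to 6925 for Pde6c and 2409 to 9200 for Pde6h, which still leaves counting error small beside the spread between libraries.

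Between genes, levels are compared only per kilobase of exon. On that scale (CPM per kilobase of annotated exon, mean ± SD, n = 32) the inhibitory rod subunit Pde6g stood highest at 1244 ± 215.5, followed by Pde6a at 909 ± 129 and Pde6b at 731 ± 87.7. The cone subunits stood at 50.4 ± 19.2 for Pde6c and 24.0 ± 7.74 for Pde6h. Pde6c thus made up a median of 2.99% of the catalytic transcripts per length (1.38% to 5.03% over the libraries), and Pde6h a median of 1.82% of the inhibitory ones (0.78% to 3.22%). The ratio of the 2 rod catalytic transcripts, Pde6a over Pde6b, was 1.25 ± 0.125, the least variable of the ratios taken. Pde6g stood at 0.756 of the sum of Pde6a and Pde6b at the median.

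How these ratios read depends on the length used. Pde6g and Pde6h code for very short proteins, and the principal transcript of Pde6g has 900 bases beside 2317 of annotated exon. For Pde6b these lengths are 2799 and 5026, and its longest transcript has 4088. By the longest transcript Pde6a over Pde6b had a median of 1.05, with means of 0.924 in WT at CT10 and 0.914 in KO at CT19. Ratios by the principal transcript were not taken. With the coding length alone (264 bases for Pde6g and 252 for Pde6h, against 2571 to 2586 for the catalytic subunits), Pde6h made up 6.18% of the inhibitory transcripts, and the median ratio of Pde6h to Pde6c moved from 0.45 to 12.2. By annotated exon, longest transcript or coding length the cone subunits were the minority in every library.

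The genotypes were compared for each subunit with the 4 times averaged and then one time after another. With the times averaged, all 5 subunits stood lower in KO and 4 were called. These were both rod catalytic subunits, by a small amount, and both cone subunits, by more. The rod inhibitory subunit Pde6g was lower by about as much as the rod catalytic ones (-0.20) but was not called (edgeR adjusted p = 0.0585). Of all tested genes, 6.4% were called lower and 9.88% higher in KO in the same comparison (adjusted p under 0.05, edgeR quasi-likelihood test with Benjamini-Hochberg adjustment over the tested genes). The median difference of the 5 subunits was that of Pde6a, -0.22 on the log2 scale, beside -0.003 for all tested genes.

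**Figure D1:**
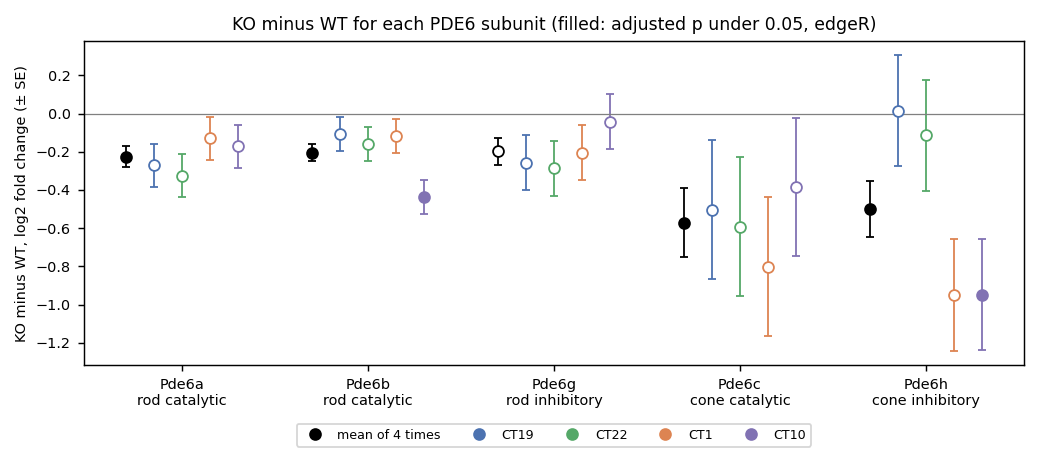
KO minus WT log2 fold change (vertical axis) with its standard error for each subunit, with the times averaged and at each time; filled points have an edgeR adjusted p under 0.05. Only the Pde6h value at CT19, 0.01, lies above 0, and the cone subunits have the wider error bars.

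Pde6a (ENSMUSG00000024575, GRCm38 chromosome 18, 61220315 to 61289924, plus strand) encodes the rod alpha subunit. In WT its libraries read 3521, 4142, 4231 and 4912 CPM at CT19 and 4071, 4209.6, 5068 and 5421 at CT22. At CT1 they read 4315, 4656, 4741 and 5593 CPM, and at CT10 4356, 4406, 4721 and 5039.7. The KO libraries read 3027, 3183, 3839 and 3868 CPM at CT19, 3415, 3420.3, 3872 and 4265 at CT22, 3986, 4521, 4541 and 4591 at CT1 and 3611, 4145, 4305 and 4391 at CT10.

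The genotypes overlapped for Pde6a at every time, and 8 of the 16 WT libraries stood above every KO library. Means over the times were 4588 ± 537 CPM in WT and 3936 ± 496 in KO (SD, n = 16). The difference averaged over the times was -0.22 on the log2 scale (SE 0.06, edgeR adjusted p = 0.00589). At single times it ran from -0.13 at CT1 to -0.33 at CT22, and none of these passed the test.

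Pde6b (ENSMUSG00000029491, chromosome 5, 108388391 to 108432397, plus strand) encodes the rod beta subunit and is the gene mutated in the rd1 mouse. Its upstream window is printed because Pde6b and Pde6h were the subunits called at CT10, and it is read from RefSeq on GRCm38.p6, which held a promoter for 2 of the 5 subunits. The window is chr5:108388123-108388372, plus strand, the 250 bases before the RefSeq start, and the capitals mark a match to TGAGTCA, an AP-1 type motif, from 57 to 51 bases before the start.
Pde6b: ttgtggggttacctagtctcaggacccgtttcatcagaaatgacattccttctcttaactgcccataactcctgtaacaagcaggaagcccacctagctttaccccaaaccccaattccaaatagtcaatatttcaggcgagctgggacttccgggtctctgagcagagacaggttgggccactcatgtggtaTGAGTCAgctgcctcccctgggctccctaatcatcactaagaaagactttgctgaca
That motif was added after the window was read, and 4.46% of 32851 promoter windows of the same length hold it on either strand. A match is a description of the letters and not a site shown to be bound. TAATCC, the core letters bound by the photoreceptor factor CRX, is in 6.25% of the windows and was not found in this one. The same was so for the clock motifs CACGTG (E-box, 6.02% of windows), TTATGTAA (D-box, 0.819%) and AGGTCA (RORE core, 14% of windows).

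Pde6b was the only one of the 3 rod subunits called at a single time, CT10. At CT10 the WT libraries read 4142, 4333, 4578 and 4799.8 CPM and the KO libraries 3033, 3302, 3386 and 3466. Every KO library was below every WT library at that time, which was so for 9.08% of all tested genes at CT10. The difference was -0.44 (SE 0.09, edgeR adjusted p = 0.00165), a KO to WT ratio of 0.739. Among all tested genes 3.02% were called lower and 7.2% higher at CT10.

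At the other times the Pde6b libraries of the genotypes overlapped. They read 3251, 3570.4, 3794 and 4107 CPM in WT and 2840.4, 3449.8, 3502 and 3874 in KO at CT19. At CT22 they read 3452, 3539.7, 3879 and 3919 CPM in WT, and 3037, 3252, 3413 and 3547 in KO. At CT1 they read 3587, 3831, 4009 and 4259 CPM in WT, and 3402, 3626, 3697 and 3729.7 in KO. Differences there were -0.11, -0.16 and -0.12, none called. With the times averaged the difference was -0.21 (SE 0.04, edgeR adjusted p = 0.00168). Group means put WT at CT10 first, 4463 ± 286 CPM (SD, n = 4), and its gap of 542 CPM to WT at CT1 was larger than the SD of either group. It was the 1 gap among 7 between neighbours in that order of which this holds, and KO at CT10 came last at 3297 ± 188 CPM.

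Pde6g (ENSMUSG00000025386, chromosome 11, 120447605 to 120453500, minus strand) encodes the rod inhibitory subunit, and its chromosome also carries Per1. In WT the libraries read 2819, 3015, 3133 and 3216 CPM at CT19 and 2656, 3163, 3319 and 3536 at CT22. They read 2838, 3022, 3312 and 4620.4 CPM at CT1 and 2330.5, 2636, 2659.9 and 3058 at CT10. The KO libraries read 2212, 2427, 2566 and 2979.5 CPM at CT19, 2044, 2056, 2899 and 3397 at CT22, 2826, 2880.4, 3078 and 3176 at CT1 and 2221, 2597, 2667 and 2891 at CT10. The genotypes overlapped at all times, and the highest library, 4620.4 CPM, was the WT one at CT1 whose title names 2 animals. The difference averaged over the times, -0.20 (SE 0.07), did not pass the test (edgeR adjusted p = 0.0585), and without that library it was -0.15 (adjusted p = 0.124). DESeq2 gave an adjusted p of 0.0354 for the same difference, so the call on Pde6g rests on the tool.

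The ratios between the rod transcripts at CT10 are given as a description, with no test. Pde6a over Pde6b, per length, was 1.09 to 1.13 in the 4 WT libraries and 1.28 to 1.43 in the 4 KO libraries. Pde6g over the sum of both catalytic transcripts was 0.574 to 0.65 in WT and 0.697 to 0.783 in KO. Neither ratio overlapped between genotypes at CT10, while over the 4 times Pde6a over Pde6b was 1.25 ± 0.115 in WT and 1.24 ± 0.138 in KO (SD, n = 16). Both ratios hold Pde6b in the denominator, and Pde6b alone did not overlap at CT10 either, so they are not separate observations. How often ratios of other genes separate in this way was not computed.

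**Figure D2:**
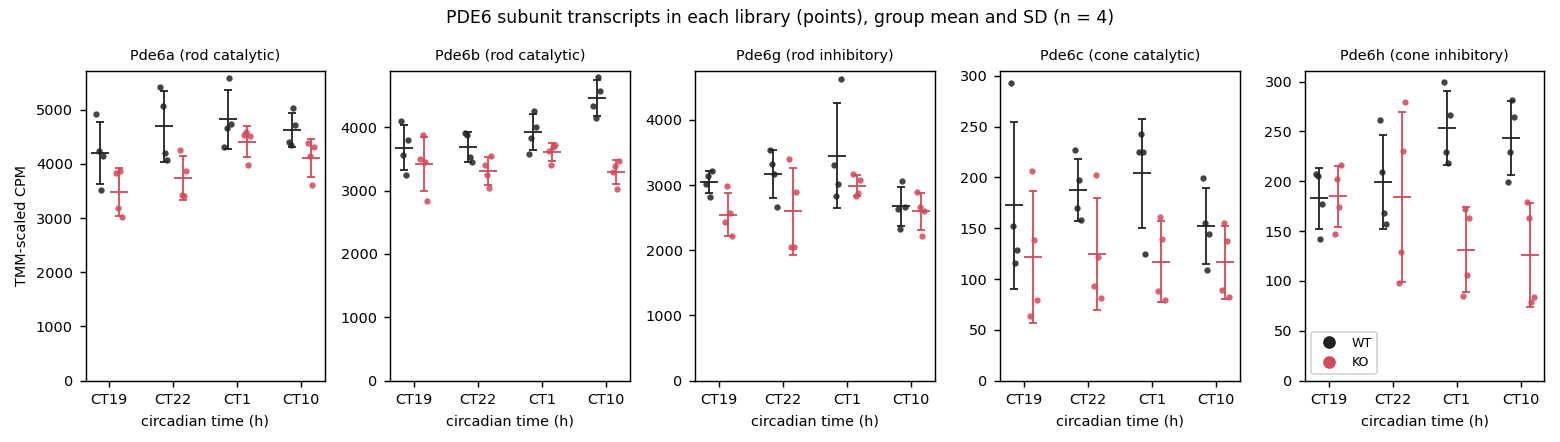
TMM-scaled CPM (vertical axis, from 0) of each subunit in each library at the 4 circadian times, with group mean and SD (n = 4), WT in black and KO in red. At CT10 the genotypes separate for Pde6b and Pde6h, and at CT1 for Pde6h.

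Pde6c (ENSMUSG00000024992, chromosome 19, 38132781 to 38183958, plus strand) encodes the cone catalytic subunit. In WT the libraries read 116, 128, 152 and 293 CPM at CT19 and 158, 170.0, 198 and 227 at CT22. They read 124, 225, 225 and 243 CPM at CT1 and 109, 144, 155 and 199.5 at CT10. In KO they read 63.2, 79.1, 139 and 206 CPM at CT19, 81, 93.3, 122 and 203 at CT22, 79.6, 87.8, 139 and 162 at CT1 and 82.7, 89.6, 137 and 155 at CT10. The genotypes overlapped at every time, but 8 of 16 KO libraries lay below every WT library and 5 of 16 WT libraries above every KO library.

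Means of Pde6c were 179 ± 52.8 CPM in WT and 119.9 ± 45 in KO (SD, n = 16). The difference averaged over the times was -0.57 (SE 0.18, edgeR adjusted p = 0.032), a KO to WT ratio of 0.673. It ran from -0.39 at CT10 to -0.80 at CT1 without passing the test at any single time. The call was lost on leaving out any 1 of 11 of the 32 libraries, with an adjusted p of up to 0.0639, and with no filter on low counts (0.0697). These were WT CT19 replicate 3, WT CT22 replicate 6, WT CT1 replicate 4, WT CT10 replicate 4, KO CT19 replicates 2 and 3, KO CT22 replicates 2 and 3, KO CT1 replicates 4 and 6, and KO CT10 replicate 2.

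Pde6h (ENSMUSG00000064330, chromosome 6, 136923832 to 136968865, plus strand) encodes the cone inhibitory subunit. Of its annotated exon bases 136, or 1.73%, are shared with Arhgdib on the other strand, so that a small part of its reads could belong to that gene. Its upstream window from RefSeq, chr6:136954273-136954522 on the plus strand of GRCm38.p6, is printed for comparison with that of Pde6b. It is the 250 bases before the RefSeq start and holds none of the 5 motifs named above. That start lies well inside the gene span given here, so the window is not upstream of the outermost annotated start.
Pde6h: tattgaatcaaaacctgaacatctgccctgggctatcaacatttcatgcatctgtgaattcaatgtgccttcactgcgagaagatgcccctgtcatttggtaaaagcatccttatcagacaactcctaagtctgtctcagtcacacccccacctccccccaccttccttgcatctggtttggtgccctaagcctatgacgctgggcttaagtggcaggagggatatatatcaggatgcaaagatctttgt

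The Pde6h libraries of the genotypes separated at both times in the subjective day. At CT1 the WT libraries read 218, 229.5, 266 and 299.8 CPM and the KO libraries 84.5, 106, 163 and 172. At CT10 they read 199, 229, 264 and 282 CPM in WT, and 79.3, 83.9, 163 and 179 in KO. At both times every KO library was below every WT library, beside 3.36% of all tested genes at CT1. The differences were -0.95 at both, with SE 0.29, ratios of 0.518. At CT10 it was called (edgeR adjusted p = 0.0373) and at CT1 it was not (adjusted p = 0.113), where 0.515% of tested genes were called lower. DESeq2 gave an adjusted p of 0.038 at CT1.

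In the subjective night the Pde6h libraries of the genotypes overlapped. At CT19 WT read 142, 177, 205 and 208 CPM and KO 147, 174, 202 and 216, a difference of 0.01 (SE 0.29). At CT22 WT read 158, 168, 209 and 262 and KO 97.8, 129, 230.4 and 279.9 CPM, a difference of -0.11 (SE 0.29). Of the tested genes, 2.31% were called lower and 2.89% higher at CT19, and 0.627% lower at CT22. No subunit separated without overlap at either time (every KO library was below every WT library for 4.56% and 3.11% of tested genes). By edgeR and by DESeq2 0 of the 5 were called at CT19 or at CT22. At each time 1 unadjusted edgeR p was under 0.05, that of Pde6a. Among the 17871 tested genes 3818 had such a p at CT19 and 2149 at CT22. With the times averaged Pde6h differed by -0.50 (SE 0.15, edgeR adjusted p = 0.0193), with means of 219.8 ± 45.9 CPM in WT and 157 ± 58.2 in KO (SD, n = 16).

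The CT10 call on Pde6h was lost without WT CT10 replicates 1, 2 or 5 or KO CT10 replicates 2 or 4, with an adjusted p of up to 0.132. It was also lost with no filter on low counts (adjusted p = 0.0837), with the lens marker level as a covariate (-0.87, adjusted p = 0.101) and when only the CT10 libraries were fitted (-0.94, adjusted p = 0.0958). That on Pde6b at CT10 and those on Pde6a, Pde6b and Pde6h with the times averaged stayed on leaving out any 1 of the 32 libraries.

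Whether the genotype difference itself changed with time was tested as an interaction, which was called for 1.62% of tested genes and for no subunit. Pde6h came nearest, with its 4 differences spread over 0.96 on the log2 scale (edgeR adjusted p = 0.272), followed by Pde6b (0.33, adjusted p = 0.279). That the difference of either gene varied with time was thus not shown. These were the 2 subunits with an unadjusted interaction p under 0.05 by edgeR, as had 2956 of the 17871 tested genes. DESeq2 also called 0 of the 5.

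Differences among the 4 times within WT were called for 14.6% of tested genes and for none of the subunits. Pde6b had the smallest p, 0.0114 (edgeR adjusted p = 0.0671), with its fitted group means spread over 0.28 on the log2 scale, and DESeq2 called it (adjusted p = 0.0143). Within KO a single gene, 0.0056% of those tested, was called and no subunit was, by edgeR or by DESeq2. The 1 unadjusted p under 0.05 there was 0.0252, for Pde6a (edgeR adjusted p = 0.393), and 1862 of the 17871 tested genes had one under 0.05. For Pde6a and Pde6c no gap between neighbouring groups in the order of their means was larger than the SDs of both. For Pde6g there was 1 such gap, below KO at CT1, and for Pde6h 1, above KO at CT1.

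Markers of other cells also differed between the genotypes, with the times averaged and at CT10. The mean log2 CPM over bipolar, amacrine and Müller glia markers was 3.68 ± 0.499 in WT and 4.14 ± 0.292 in KO (SD, n = 16), and at CT10 3.09 ± 0.359 and 4.14 ± 0.174 (n = 4). At CT10 13 of 14 bipolar markers and 7 of 13 Müller glia markers were called higher in KO, and with the times averaged 12 of 14 and 6 of 13. Of 4 horizontal cell markers, 4 were called higher with the times averaged and 3 at CT10, while 0 of 11 pigment epithelium markers were called in either. Lens markers summed to 1948 to 7570 CPM in WT and 334 to 2341 in KO at CT10, ranges that overlap. Only 1 of the 11 lens markers, Bfsp2, was called, lower in KO at CT10 and with the times averaged. Cone markers other than PDE6 also summed to less, 2134 to 2968 CPM in WT and 1693 to 1846 in KO at CT10, where 1 of 7 (Arr3) was called, lower. Opn1sw alone averaged 1194 CPM in WT, where the median sum was 2280. With the times averaged 2 of 7 were called lower (Opn1mw and Opn1sw) and 1 higher (Cngb3). At CT19 the median difference of the 7 was 0.05, and only Cngb3 was called, higher.

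With the inner retinal marker level as a covariate none of the subunits was called. Calls over all tested genes fell as well, from 2909 to 785 with the times averaged and from 1825 to 226 at CT10. The difference averaged over the times became -0.15 for Pde6a, -0.10 for Pde6b and -0.32 for Pde6c, and stayed at -0.51 for Pde6h (edgeR adjusted p = 0.171, SE 0.20 in place of 0.15). At CT10 those of Pde6b and Pde6h became -0.20 and -0.97 (adjusted p = 0.492 and 0.332), and that of Pde6c turned to 0.21.

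The subunits were then read against the genes they work with. Scaled to the sum of 18 other rod phototransduction genes, which moves the median of all tested genes to 0.12, the rod subunits differed by -0.10 (Pde6a), -0.08 (Pde6b) and -0.08 (Pde6g), and none of the 5 was called. At CT10 Pde6b and Pde6h became -0.29 (edgeR adjusted p = 0.0604) and -0.81 (adjusted p = 0.0539). Scaled to 10 other cone phototransduction genes, which moves that median to 0.27, the rod subunits turned to between 0.06 and 0.08 and the cone subunits stayed lower, at -0.32 and -0.22, again with none called. Such a scaling moves all genes nearly alike, so the differences relative to that median (-0.18 to -0.58 with the cone genes) stay close to those under TMM by construction. Of the calls on all genes, 39.3% were lower in KO under TMM, 6.57% with the rod genes and 1.34% with the cone genes.

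The cone subunits varied more between libraries than the rod subunits. Over the 32 libraries the coefficient of variation was 38% for Pde6c and 32.3% for Pde6h, beside 12% for Pde6b, 14.2% for Pde6a and 17.3% for Pde6g. In ordered KO libraries, Pde6c showed 8 libraries from 63.2 to 93.3 CPM, then a step of 1.3 times to 122. A second step of 1.26 times led to 2 libraries at 203 and 206. Pde6h showed 5 KO libraries from 79.3 to 106 CPM before a step of 1.22 times to 129, and a step of 1.21 times to its highest, 279.9. For the rod subunits the largest KO step was 1.07 to 1.09 times. In WT the largest steps were 1.31 times for Pde6g, 1.21 for Pde6c, 1.16 for Pde6a, 1.14 for Pde6h and 1.06 for Pde6b. Of the 5 KO libraries lowest in Pde6h, 3 were among the 8 lowest in Pde6c, and others went apart. KO at CT10 replicate 4 read 79.3 CPM for Pde6h and 137 for Pde6c, while KO at CT22 replicate 3 read 279.9 for Pde6h and 81 for Pde6c.

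Correlations of log2 CPM over the 32 libraries are given as descriptions, since the libraries share their groups and scaling. Among the rod subunits r was 0.70 for Pde6a with Pde6b (Spearman 0.71, and 0.75 without the 2 libraries farthest from the median). It was 0.60 for Pde6a with Pde6g and 0.45 for Pde6b with Pde6g. Within genotypes the first of these was 0.67 in WT and 0.45 in KO, and the last -0.10 and 0.73 (n = 16 each). Pairs of a rod and a cone subunit ran from 0.12 (Pde6g with Pde6c) to 0.45 (Pde6b with Pde6h), as high as Pde6b with Pde6g. Within genotypes Pde6b with Pde6h stood at 0.61 in WT and -0.09 in KO, and Pde6a with Pde6h at 0.63 and -0.36. The cone subunits stood at 0.33 over all libraries (Spearman 0.27) and at 0.13 in WT and 0.02 in KO. After group means were taken off, Pde6c with Pde6h stood at 0.05 and Pde6a with Pde6b at 0.70. With the 18 other rod phototransduction genes the median r was 0.61 for Pde6a, 0.57 for Pde6b and 0.50 for Pde6g. With the 10 other cone phototransduction genes it was 0.14 for Pde6c and 0.29 for Pde6h, no higher than the 0.34 of the rod subunit Pde6g with the same cone genes.

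**Figure D3:**
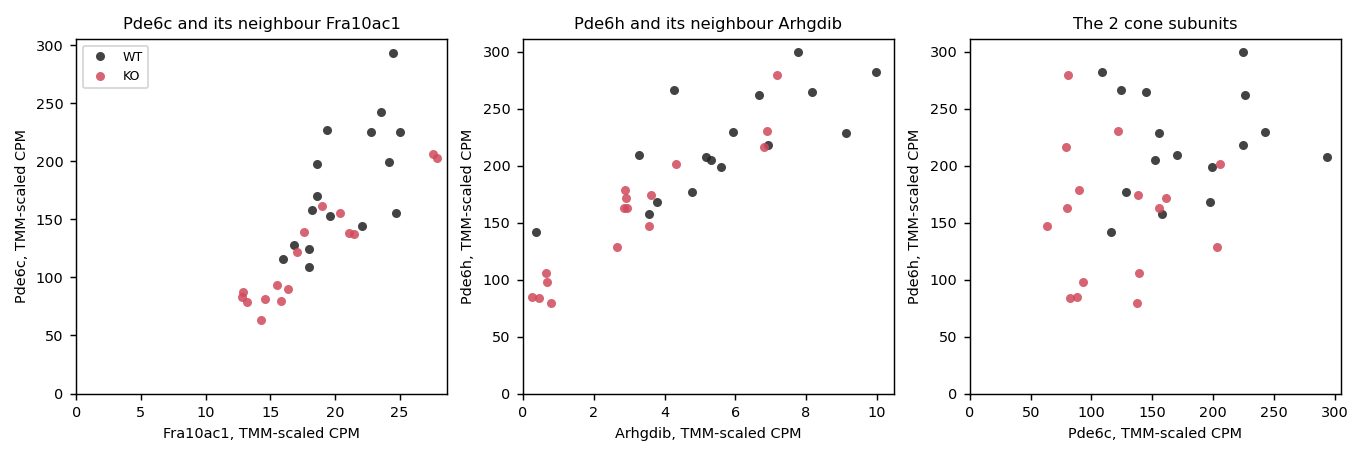
TMM-scaled CPM per library of Pde6c against its neighbour Fra10ac1 (left), Pde6h against Arhgdib (middle) and Pde6h against Pde6c (right), WT in black and KO in red. Both neighbours rise with their cone subunit (r = 0.85 and 0.90 in log2 CPM), while the cone subunits are only loosely related to each other (r = 0.33).

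The genes whose levels ran most like each subunit over the 32 libraries were then listed, among genes with a mean log2 CPM of at least 1. For Pde6a they were Impg1 (r = 0.90), a proteoglycan of the matrix around photoreceptors, the hexokinase Hk1 (0.88) and Vkorc1l1 (0.87). For Pde6b they were Scamp5 (0.88), the clathrin adaptor subunit Ap2a2 (0.88) and the small heat shock protein Hspb6 (0.86). For Pde6g they were Rnf10 (0.88), the disk rim protein Rom1 (0.88) and Csnk1g2 (0.87). None of these 9 genes lies on the chromosome of its subunit.

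The lists for the cone subunits held genes of their own chromosomes. For Pde6c the 3 genes were Hif1an, which encodes an oxygen-sensing hydroxylase (r = 0.85), Fra10ac1 (0.85) and R3hcc1l (0.80), and all 3 lie on chromosome 19 with Pde6c, 6.43, 0.0557 and 4.39 Mb from it. For Pde6h they were Arhgdib (0.90), which overlaps it, Dera (0.77), 0.831 Mb away, and Stn1 (0.68) on chromosome 19. Of the 20 genes most like Pde6c, 5 lie on chromosome 19, which carries 2.96% of tested genes. For Pde6h 3 of 20 lie on chromosome 6, which carries 4.99%. The counts for the rod subunits were 1 of 20 for Pde6a (2.48% of tested genes on its chromosome), 1 for Pde6b (6.88%) and 3 for Pde6g (7.39%).

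Among tested genes starting within 5 Mb of Pde6c, 9 of 79 (11.4%) had an absolute r of at least 0.6 with it, beside 1.39% of the genes on other chromosomes. For Pde6h it was 8 of 50 (16%) beside 0.171%. For the rod subunits the shares were closer, with 3.51% near Pde6a beside 3.48% elsewhere, 9.24% beside 8.63% for Pde6b and 3.23% beside 3.63% for Pde6g. With group means taken off, the shares were 8.86% beside 3.13% for Pde6c and 14% beside 0.0236% for Pde6h. For the rod subunits they were then 1.75% beside 2.89% for Pde6a, 3.36% beside 2.3% for Pde6b and 5.81% beside 5.31% for Pde6g. This window and the threshold were chosen after the data were seen, and neighbouring genes are not independent of each other.

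**Figure D4:**
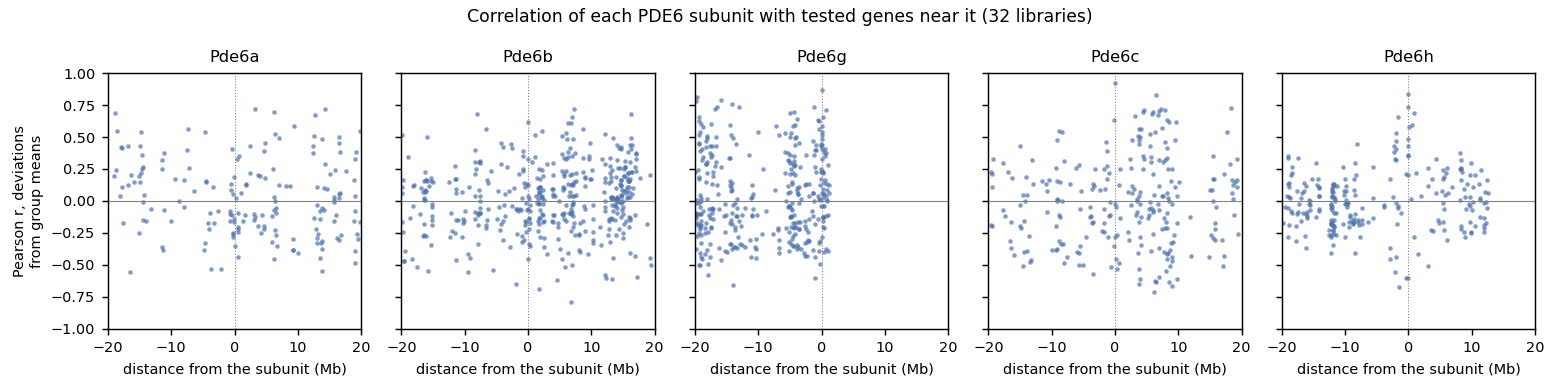
Pearson correlation over the 32 libraries of each subunit with every tested gene up to 20 Mb from it (horizontal axis, Mb along the chromosome, positive towards higher coordinates), after group means were taken off. Pde6h shows its high values, up to 0.84 for Arhgdib, close to 0, Pde6c reaches 0.92 with Fra10ac1, and Pde6g reaches 0.87 with P4hb.

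Arhgdib was low but split the libraries clearly. It overlaps Pde6h on the other strand, and the strand setting of the counts is not given. Some or all of its few reads could thus come from Pde6h, which was not tested. It read 0.253 to 0.794 CPM in the 5 KO libraries lowest in Pde6h and 0.365 in the WT library lowest in Pde6h (CT19 replicate 4). In the other 26 libraries it read 2.66 to 9.99 CPM. Within genotypes its correlation with Pde6h was 0.73 in WT and 0.95 in KO (n = 16 each, Spearman 0.90 over the 32). Fra10ac1, 16 to 25 CPM in WT and 12.8 to 27.9 in KO, correlated with Pde6c at 0.70 in WT and 0.91 in KO (Spearman 0.86 over the 32). The mice are a cross of 2 strains, and which strain's allele each animal carried at these loci is not given in the labels and was not tested.

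With the times averaged Arhgdib differed by -0.97 (SE 0.34, edgeR adjusted p = 0.0501), and at CT10 by -2.22 (SE 0.70, adjusted p = 0.0415), a time at which Pde6h was called as well. Dera differed by -0.23 averaged (SE 0.08, edgeR adjusted p = 0.0408) and by -0.68 at CT1 (SE 0.16, adjusted p = 0.0158). At CT19 and CT22 Arhgdib differed by 0.23 and 0.01 (SE 0.67 and 0.66), beside 0.01 and -0.11 for Pde6h. Of the 3 genes most like Pde6c, R3hcc1l (-0.36, SE 0.05, edgeR adjusted p = 1.18e-05) and Hif1an (-0.18, SE 0.06, adjusted p = 0.0229) were called lower with the times averaged. Fra10ac1 was not (-0.20, SE 0.10, adjusted p = 0.207). Stn1, listed for Pde6h, was called lower at -0.53 (SE 0.07, adjusted p = 3.15e-06).

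The other genes of phototransduction were read from lists of the pathway. Of 18 further rod genes, 6 were called lower and 1 higher in KO with the times averaged, with a median difference of -0.12 (0.16 when scaled to the cone genes). With the inner retinal marker level as a covariate 2 were called lower and 1 higher, with a median of -0.03. Guca1b, a calcium sensor that activates guanylate cyclase when calcium falls in the light, fell most (-0.43, SE 0.08, edgeR adjusted p = 0.000223), and its cyclase Gucy2e fell by 0.19. The GTPase-activating complex that ends transducin's action on PDE6 was lower in its parts Rgs9bp (-0.25) and Gnb5 (-0.24), while Rgs9 itself stood at -0.02 and was not called. The transducin subunit Gnb1 (-0.17) and Rcvrn (-0.21) were also called lower. Sag, rod arrestin, rose by 0.35. Gnat1, the rod transducin alpha subunit that binds Pde6g, was not called (-0.12, adjusted p = 0.217).

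Of 10 further cone genes 3 were called lower, the opsins Opn1sw (-0.37, SE 0.13, edgeR adjusted p = 0.0433) and Opn1mw (-0.26) and the potassium channel subunit Kcne2 (-0.32). Cngb3, the cone channel beta subunit, was called higher (0.35, SE 0.06, adjusted p = 0.000306). The median of the list was -0.16 (0.10 when scaled to these same genes). With the inner retinal covariate 0 of the 10 were called lower and 1 higher, with a median of -0.001. Gnat2, the cone transducin alpha subunit, was not called (-0.12, adjusted p = 0.144). At CT10 Arr3, cone arrestin, was the 1 gene of this list called, at -1.12 (SE 0.28, adjusted p = 0.0119). Reads of Opn1sw overlap Calu on the other strand over 397 exon bases, and those of Gnb5 an antisense transcript over 248. Genes named below overlap others in the same way, Samd11 over 598 exon bases with Noc2l, and Pde3a over 741 and Pde8b over 447 with antisense transcripts. For Pde5a it is 55.

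PDE6 needs its own chaperone and lipid anchors to be assembled and carried to the outer segment. Of 13 genes for these steps 2 were called lower, Aipl1, the chaperone of PDE6 (-0.16, SE 0.05, edgeR adjusted p = 0.0212), and Hsp90aa1 (-0.28, SE 0.06, adjusted p = 0.00155), and the median was -0.07 (0.06 and 0.20 when scaled to the rod and cone genes). Neither call was kept with the inner retinal covariate, under which 0 of the 13 were called (median -0.05). Pde6d, the prenyl-binding protein named after the enzyme, measured 143 ± 19.9 CPM in WT and 140 ± 17 in KO (SD, n = 16) and was not called (-0.02, adjusted p = 0.857). Of 13 transcription factors of photoreceptors 3 were called lower, Nrl (-0.26), which directs the rod fate and drives rod genes, Esrrb (-0.25) and Samd11 (-0.20), and Crx was not (-0.05, adjusted p = 0.321). Their median was -0.02 (0.10 and 0.26 with those scalings). With the inner retinal covariate 0 of these 13 were called lower and 1 higher, with a median of -0.003.

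**Figure D5:**
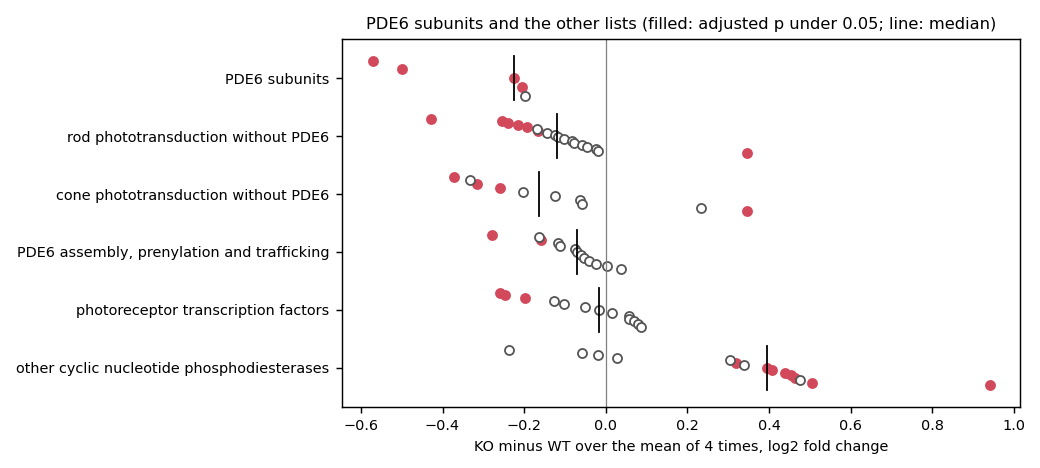
KO minus WT log2 fold change with the times averaged (horizontal axis) for each PDE6 subunit and each gene of 5 lists; filled points have an edgeR adjusted p under 0.05 and the bars mark medians. PDE6 subunits lie below 0 and the other phosphodiesterases mostly above it.

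Phosphodiesterases of the other families, which act in other cyclic nucleotide signalling, were higher in KO where they were called. Of 18 listed 15 were tested, and 8 were called higher and none lower with the times averaged, with a median of 0.40 (0.51 and 0.67 when scaled to the rod and cone genes). At CT10 12 of 15 were called higher, with a median of 0.80. Pde5a, which degrades cyclic GMP, showed 0.94 (SE 0.18, edgeR adjusted p = 0.000551) but had only 0.394 ± 0.201 CPM in WT and 0.721 ± 0.181 in KO (SD, n = 16). Pde4b, which degrades cyclic AMP, measured 7.71 ± 1.15 and 11 ± 2.67 CPM (0.50, SE 0.09, adjusted p = 0.000252), and Pde3a and Pde1b showed 0.40 and 0.45. Pde8b, at 218 ± 41.8 CPM in WT and 218 ± 14 in KO, did not pass with the times averaged (0.03) but was called at CT10 (0.55, SE 0.08, adjusted p = 4.2e-05). With the inner retinal marker level as a covariate none of the 15 was called with the times averaged (median 0.05) and 2 were at CT10.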

How the data were processed

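RNA from laser-captured photoreceptors was sequenced in 32 libraries, 4 in each of 8 groups of genotype and circadian time; groups and replicate numbers were taken from the labels. The authors deposited 1 table of raw read counts per gene for 54232 Ensembl gene IDs, of which 19506 were at 0 in every library. Per the submitters' processing notes, Trimmomatic 0.32, HISAT2 2.1.0, Cufflinks and HTSeq 0.11 were used with GRCm38.p6; for the strand setting and the annotation release, not given in the sources used here, nothing was assumed, so reads of overlapping genes on opposite strands cannot be told apart. Gene names matched 99.9% of IDs.

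Counts were filtered with filterByExpr (minimum count 10, minimum total 15) and scaled by TMM in edgeR 4.0.16 (R 4.3.3). A quasi-likelihood fit with 8 group means and 24 residual degrees of freedom gave each contrast, with Benjamini-Hochberg adjustment over 17871 genes and a threshold of 0.05. The script was tested on simulated counts into which known fold changes had been put. The averaged contrast is the mean of the 4 KO minus WT differences. Levels are CPM after TMM scaling, and correlations use log2 CPM with a prior count of 2. Nothing beyond the animal numbers in the titles says how libraries relate, and counts of the 48 pairs of libraries within groups differed by more than sampling noise.

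The subunits and gene lists were chosen with earlier results of these data known. From each list the genes named are up to 4 called with the times averaged, by smallest p, and up to 2 in other contrasts; for each subunit, the 3 genes most like it. Sag, Gnb1, Rcvrn, Gnat1, Rgs9, Gnat2, Pde6d, Crx, P4hb and the averaged value of Pde8b fall outside that rule and were named after their values were seen. Alternatives were DESeq2 1.42.0, RLE size factors, no filter, a replicate block, marker covariates, scaling to rod or cone genes, fits to 1 time, other gene lengths and leaving out each library.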

Additional observations from a re-analysis of the deposited data

Results flagged for a closer look

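In each of the 40 combinations of subunit and group, the highest and lowest of the 4 libraries were compared with the nearest of the others by Dixon's test at the 95% level, and 2 stood apart; chance does so in about 1 of 20. Pde6a in KO at CT1 replicate 5 read 3985.5 CPM beside 4521 to 4591 in the others, a gap of 0.885 of the range. Pde6c in WT at CT1 replicate 5 read 124.2 CPM beside 225 to 243 in the others, a gap of 0.85 of the range. That second library is the one whose title carries numbers of 2 animals, and it was also the highest of all libraries for Pde6g.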

How the results depend on the processing

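Of the subunits' results under alternatives other than leaving out a library, 297 kept their side of the threshold and, for KO minus WT, their direction. Another 19 lost and 4 gained a call, and 20 changed sign. Results for time and interaction are spreads without a direction. The first fit called 4 subunits averaged and 2 at CT10, so most of the 297 had no call to lose. Averaged Pde6a and Pde6b and Pde6b at CT10, counted as sign changes with the cone genes, lost their calls too. Of the sign changes 12 came with the scaling to cone genes and 3 with that to rod genes, which move all genes together, and 5 with the other alternatives, whose causes were not tested. Without a filter on low counts, Pde6c averaged -0.570, Pde6h at CT10 -0.945 with 1 subunit called there, and calls numbered 546 at CT19 and 5 for time in KO. Same-numbered libraries did not pair: of 12 pairs 3 correlated above 0.1 (-0.101 to 0.21), and 3 correlated best with their own number. With a replicate block, Pde6h was 0.105 at CT22 and -1.070 at CT1 (edgeR adjusted p = 0.044, 1 subunit called), and time in KO gave 0 genes.

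With the inner retina covariate 785 genes and 0 subunits were called with the times averaged (Pde6a -0.152, Pde6b -0.100, Pde6c -0.320, Pde6h -0.509), 426 genes at CT19 (Pde6b 0.000), 226 genes and 0 subunits at CT10 (Pde6b -0.198, Pde6g 0.234, Pde6c 0.210, Pde6h -0.969), 1391 and 0 for time in WT and KO and 164 for the interaction. With the lens covariate Pde6h was -0.019 at CT19 and -0.870 at CT10, with 1 subunit called there, 1730 genes for time in WT and 125 for the interaction.

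Scaled to rod genes, averaged differences were -0.098 (Pde6a), -0.078 (Pde6b), -0.428 (Pde6c) and -0.367 (Pde6h), 0 called. At CT22 Pde6b was 0.027 and Pde6h 0.093, and at CT10 Pde6b -0.290, Pde6g 0.103 and Pde6h -0.813, 0 called. Genes called were 235 at CT19, 157 at CT1, 1122 for time in WT and 37 for the interaction. Scaled to cone genes, averaged differences were 0.058 (Pde6a), 0.067 (Pde6b), 0.081 (Pde6g), -0.318 (Pde6c) and -0.220 (Pde6h), with 9565 genes and 0 subunits called. At CT22 Pde6b was 0.101 and Pde6h 0.171; at CT1 Pde6a, Pde6b and Pde6g were 0.193, 0.195 and 0.153. At CT10 Pde6a was 0.267, Pde6b 0.004, Pde6g 0.404, Pde6c 0.064 and Pde6h -0.518, with 5358 genes and 0 subunits called. Genes called were 131 at CT19, 446 and 0 for time in WT and KO, and 49 for the interaction.

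Fitting the libraries of 1 time alone gave 194, 120 and 180 genes at CT19, CT22 and CT1, and at CT10 Pde6h was -0.939 with 1 subunit called. DESeq2 called 1505 genes at CT19, 445 at CT22, 480 at CT1, 183 for time in KO and 913 for the interaction. It also called Pde6g averaged (-0.198), Pde6h at CT1 (-0.952, 1 subunit) and Pde6b for time in WT (0.274, 1 subunit). By coding length the medians were 1.85% for Pde6c, 6.18% for Pde6h, 3.54 for Pde6g over Pde6a and Pde6b and 12.2 for Pde6h over Pde6c; by longest transcript Pde6a over Pde6b was 1.05.

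Leaving out 1 library at a time, Pde6h ran from -0.088 to 0.106 at CT19 (sign changed without KO replicates 3 or 5 or WT replicates 2 or 4) and from -0.375 to 0.104 at CT22 (WT replicate 6, KO replicates 1 or 4). Pde6g at CT10 ran from -0.103 to 0.023 (WT replicate 2, KO replicate 4). Averaged Pde6g was called without 8 of the 32 libraries (-0.236 to -0.152): KO CT22 replicates 1 and 3, KO CT10 replicate 5, KO CT19 replicate 5, WT CT1 replicates 3 and 4, WT CT10 replicate 1 and WT CT22 replicate 2. Pde6b over time in WT was called without WT CT19 replicate 3, KO CT19 replicates 3 or 5 or KO CT22 replicate 4. Subunits called were 3 to 5 averaged, 1 to 2 at CT10 and 0 to 1 for time in WT. Genes called were 2456 to 3278 averaged, 423 to 1164 at CT19, 170 to 295 at CT22, 946 to 2055 at CT10, 1563 to 3144 for time in WT, 0 to 29 for time in KO and 142 to 429 for the interaction.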
